A study of Mus musculus with 12 samples.

Results

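The 7 transcripts described here mark B cells and the antibodies they make. They are the constant regions of the mu and alpha heavy chains (Ighm, Igha) and of the kappa light chain (Igkc), the joining chain (Jchain), the paired signalling subunits of the B cell receptor (Cd79a, Cd79b) and the surface protein CD20 (Ms4a1). Each was found by its symbol among the 25164 genes of 2 deposited tables of read counts from mouse liver. All 7 of 7 passed the filter on low counts, as did 13477 of the 25164 genes. The set was chosen from results of these same libraries, in which summed B and plasma cell transcripts were compared between the groups. The levels of the 7 members are therefore given as a description. Calls given for members come from the fit of all genes and are not read as tests of the members.

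RNA-seq of mouse liver covered 3 groups of 4 libraries. The HFD + fenofibrate group spent 14 weeks on high-fat food, with fenofibrate given by gavage in the last 4 of them, after 10 weeks on the food alone. The HFD group spent the same 14 weeks on high-fat food without the drug, and the Control group spent them on normal food. Fenofibrate, a PPARA agonist given to lower blood lipids, was studied here as a treatment of fatty liver. Each group had 10 mice at random assignment, and the labels give neither strain nor age nor how mice were picked for sequencing. The labels tell libraries of a group apart by a replicate number alone, so the spread between them may be partly technical.

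B cells carry an antibody molecule on their surface, made of heavy and light chains and bound to the CD79 pair, which passes the signal into the cell. A naive B cell makes IgM and IgD heavy chains, and after stimulation it can switch to IgG, IgA or IgE and mature into a plasma cell that secretes antibody. The joining chain links IgM and IgA into the polymers that epithelia carry across, and in mouse liver IgA is carried into bile. The liver holds few resident B cells beside its hepatocytes, and blood left in the tissue brings more.

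Promoters are shown for Jchain and Cd79a, the members with an entry in the RefSeq promoter table (build GRCm38.p6), because both genes are active in B lineage cells and encode proteins of the same antibody system. Each run is 300 bases on the gene's own strand, with 250 bases before RefSeq's start of the gene and 50 from it onward. RefSeq's start of Jchain (88527897) lies 6 bases, and that of Cd79a (24897497) 116 bases, from the start in the deposited tables (88527891 and 24897381), by which the genes are placed elsewhere in the text. The Jchain promoter lies at chr5:88527848-88528147 on the minus strand and the Cd79a promoter at chr7:24897247-24897546 on the plus strand. Capitals mark matches to 3 motifs searched on both strands: the octamer ATGCAAAT, the E box CAGGTG and the palindrome CCCNNGGG.
Jchain: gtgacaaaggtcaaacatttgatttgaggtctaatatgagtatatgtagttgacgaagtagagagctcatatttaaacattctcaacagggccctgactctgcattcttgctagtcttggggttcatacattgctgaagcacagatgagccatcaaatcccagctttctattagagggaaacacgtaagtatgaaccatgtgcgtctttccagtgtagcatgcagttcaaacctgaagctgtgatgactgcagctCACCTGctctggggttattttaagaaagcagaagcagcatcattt
Cd79a: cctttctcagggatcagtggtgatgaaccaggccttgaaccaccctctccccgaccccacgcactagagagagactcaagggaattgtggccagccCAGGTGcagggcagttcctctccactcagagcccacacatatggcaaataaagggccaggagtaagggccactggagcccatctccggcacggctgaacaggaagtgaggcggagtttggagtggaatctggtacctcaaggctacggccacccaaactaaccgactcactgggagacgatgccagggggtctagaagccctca
Each promoter held 1 match, to the E box, and the matches did not overlap another motif. In Jchain the match CACCTG lay on the other strand, starting 5 bases after RefSeq's start. In Cd79a the match CAGGTG lay on the gene's strand, starting 154 bases before RefSeq's start and 38 bases before the deposited one. Of 32544 promoters of this length, 20.3% held the E box, 1.75% the octamer and 13.7% the palindrome. A match is a run of letters and not a measured binding site.

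Total counts ran from 15797016 to 18514481 per library. The 7 members together held 365 to 905 counts of a library, or 0.00203% to 0.00542% of its total, so counting error limits every value. Levels are given in CPM, library-normalised counts scaled by TMM, and fitted log2 fold changes are given ± SE. A gene is called when its Benjamini-Hochberg adjusted p in edgeR's quasi-likelihood test is under 0.05. HFD + fenofibrate libraries 1 and 3 stood apart in markers of other tissues. Summed striated muscle markers reached 197 CPM in library 1 and 148 CPM in library 3, against at most 1.21 CPM in any of the other libraries, and 5 of the 8 muscle markers were at 0 in 6 or more libraries. Summed pancreatic acinar markers reached 2040 CPM in HFD + fenofibrate library 1 and lay between 6.43 and 30.8 CPM in all others. Red blood cell markers summed to 1060 CPM in HFD + fenofibrate library 1 and to 175 to 506 CPM elsewhere. The part of these libraries in the differences was not tested directly, and values without libraries 1 and 3 are given beside the calls in HFD + fenofibrate against HFD. The B cell markers Cd79a, Cd79b, Ms4a1 and Pax5 had counts in all 12 libraries. Of the plasma cell markers, Igkc, Igha, Jchain and Mzb1 had counts in every library, while Tnfrsf17, the receptor that keeps plasma cells alive, had 0 to 2.

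Ighm, the constant region of the IgM heavy chain, was the member with the widest difference between groups. It lies at chr12:113418558-113422730 on the minus strand (GRCm38), as ENSMUSG00000076617. Its level was 14.2, 12.5, 7.25 and 10.1 CPM in HFD + fenofibrate libraries 1 to 4, from 149 to 288 counts each. It was 24.9, 34.9, 18.5 and 39.2 CPM in HFD libraries 1 to 4, from 302 to 633 counts. Control libraries 1 to 4 had 6.43, 9.73, 15.7 and 9.39 CPM, from 115 to 253 counts. Every HFD library thus lay above every library of both other groups, and HFD + fenofibrate overlapped Control. The means were 11 ± 3.04 CPM in HFD + fenofibrate, 29.4 ± 9.40 CPM in HFD and 10.3 ± 3.90 CPM in Control (SD, n = 4 each). The log2 fold change was -1.42 ± 0.27 for HFD + fenofibrate against HFD, 1.51 ± 0.27 for HFD against Control and 0.10 ± 0.28 for HFD + fenofibrate against Control. Without HFD + fenofibrate libraries 1 and 3, the first of these was -1.37 and was no longer called. In bulk tissue, fewer cells of a type and less RNA per cell cannot be told apart.

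Igha, the constant region of the IgA heavy chain, followed another order. It lies at chr12:113254830-113260236 on the minus strand, in the same heavy-chain cluster. Its level was 1.63, 1.92, 2.53 and 2.17 CPM in HFD + fenofibrate libraries 1 to 4 and 2.23, 1.47, 1.10 and 2.79 CPM in HFD libraries 1 to 4. It was 2.29, 6.03, 7.21 and 3.30 CPM in Control libraries 1 to 4. Control libraries 2, 3 and 4 lay above every library of the mice on high-fat diet, and Control library 1 lay among them, so the ranges overlapped. The means were 2.06 ± 0.382 CPM in HFD + fenofibrate, 1.90 ± 0.756 CPM in HFD and 4.71 ± 2.30 CPM in Control (SD, n = 4 each). The log2 fold change was 0.13 ± 0.36 for HFD + fenofibrate against HFD, -1.31 ± 0.35 for HFD against Control and -1.18 ± 0.34 for HFD + fenofibrate against Control. The call in HFD against Control was lost without HFD library 2, HFD library 3, Control library 2 or Control library 3 (log2 fold change -1.56 to -1.02 over all alternatives). With libraries left out, the call in HFD + fenofibrate against Control was lost without any 1 of the 4 HFD + fenofibrate libraries, without Control library 2 or 3, and without HFD + fenofibrate libraries 1 and 3 together (-1.4 to -0.90 over all alternatives). It was also lost with limma-voom (-1.03) and with no scaling factor (-0.95).

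Igkc, the constant region of the kappa light chain that pairs with every heavy-chain class, lies at chr6:70726435-70726966 on the plus strand. Its level was 6.87, 6.60, 6.67 and 7.84 CPM in HFD + fenofibrate libraries 1 to 4. It was 9.85, 7.19, 10.1 and 6.14 CPM in HFD libraries 1 to 4 and 4.92, 5.51, 11.1 and 7.40 CPM in Control libraries 1 to 4. All 3 groups overlapped, and the HFD + fenofibrate libraries lay within the ranges of both other groups. HFD library 4, which had the highest Ighm of all, had the lowest Igkc of its group. For Igkc the log2 fold change was -0.25 ± 0.22 for HFD + fenofibrate against HFD, 0.20 ± 0.23 for HFD against Control and -0.04 ± 0.23 for HFD + fenofibrate against Control. The last of these ran from -0.18 to 0.24 over all alternatives and was 0.17 with no scaling factor. The non-coding gene Gm30211 spans Igkc on the same strand and had 0 to 3 counts per library. The labels do not say how reads shared by both genes were counted.

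Jchain, the joining chain of polymeric IgM and IgA, lies at chr5:88519809-88527891 on the minus strand, and its promoter is printed above. Its level was 1.63, 1.98, 1.46 and 2.51 CPM in HFD + fenofibrate libraries 1 to 4. It was 4.93, 3.24, 2.46 and 3.16 CPM in HFD libraries 1 to 4 and 1.23, 3.05, 4.66 and 2.74 CPM in Control libraries 1 to 4. HFD + fenofibrate library 4 reached just above HFD library 3, so these groups overlapped in a single pair, and Control spanned nearly the whole range. The log2 fold change was -0.86 ± 0.33 for HFD + fenofibrate against HFD, 0.24 ± 0.32 for HFD against Control and -0.62 ± 0.33 for HFD + fenofibrate against Control. Without HFD + fenofibrate libraries 1 and 3, the first of these was -0.60.

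The B cell receptor subunits and CD20 overlapped between the groups. Cd79a, at chr7:24897381-24902197 on the plus strand, had 1.93, 1.32, 1.12 and 1.43 CPM in HFD + fenofibrate libraries 1 to 4. It had 1.62, 2.06, 2.27 and 1.43 CPM in HFD libraries 1 to 4 and 3.36, 1.69, 2.24 and 1.24 CPM in Control libraries 1 to 4. The 3 groups overlapped, with the single highest value in Control library 1. Its log2 fold change was -0.35 ± 0.30 for HFD + fenofibrate against HFD, -0.21 ± 0.30 for HFD against Control and -0.56 ± 0.30 for HFD + fenofibrate against Control.

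Cd79b, the partner of Cd79a, lies at chr11:106311341-106314762 on the minus strand. It had 2.17, 1.20, 0.876 and 0.788 CPM in HFD + fenofibrate libraries 1 to 4, with library 1 above the other libraries of its group. It had 2.09, 1.53, 2.39 and 2.42 CPM in HFD libraries 1 to 4 and 1.51, 2.40, 3.05 and 1.37 CPM in Control libraries 1 to 4. HFD + fenofibrate libraries 2, 3 and 4 lay below every library of HFD and of Control. Cd79b had a log2 fold change of -0.74 ± 0.34 for HFD + fenofibrate against HFD, 0.02 ± 0.33 for HFD against Control and -0.72 ± 0.34 for HFD + fenofibrate against Control. Without HFD + fenofibrate libraries 1 and 3, the first and last of these were -1.09 and -1.06.

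Ms4a1, which encodes CD20 of mature B cells, lies at chr19:11249675-11266241 on the minus strand. It had 1.14, 0.54, 0.584 and 0.641 CPM in HFD + fenofibrate libraries 1 to 4, from 9 to 23 counts each. It had 1.35, 0.589, 1.41 and 0.93 CPM in HFD libraries 1 to 4 and 0.671, 0.778, 1.43 and 0.933 CPM in Control libraries 1 to 4. The groups overlapped, and library 1 was again the highest of HFD + fenofibrate. Ms4a1 had a log2 fold change of -0.54 ± 0.36 for HFD + fenofibrate against HFD, 0.16 ± 0.36 for HFD against Control and -0.38 ± 0.36 for HFD + fenofibrate against Control. The annotated gene 4930526L06Rik spans Ms4a1 on the other strand, and the labels do not say whether counting used the strand.

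**Figure D1:**
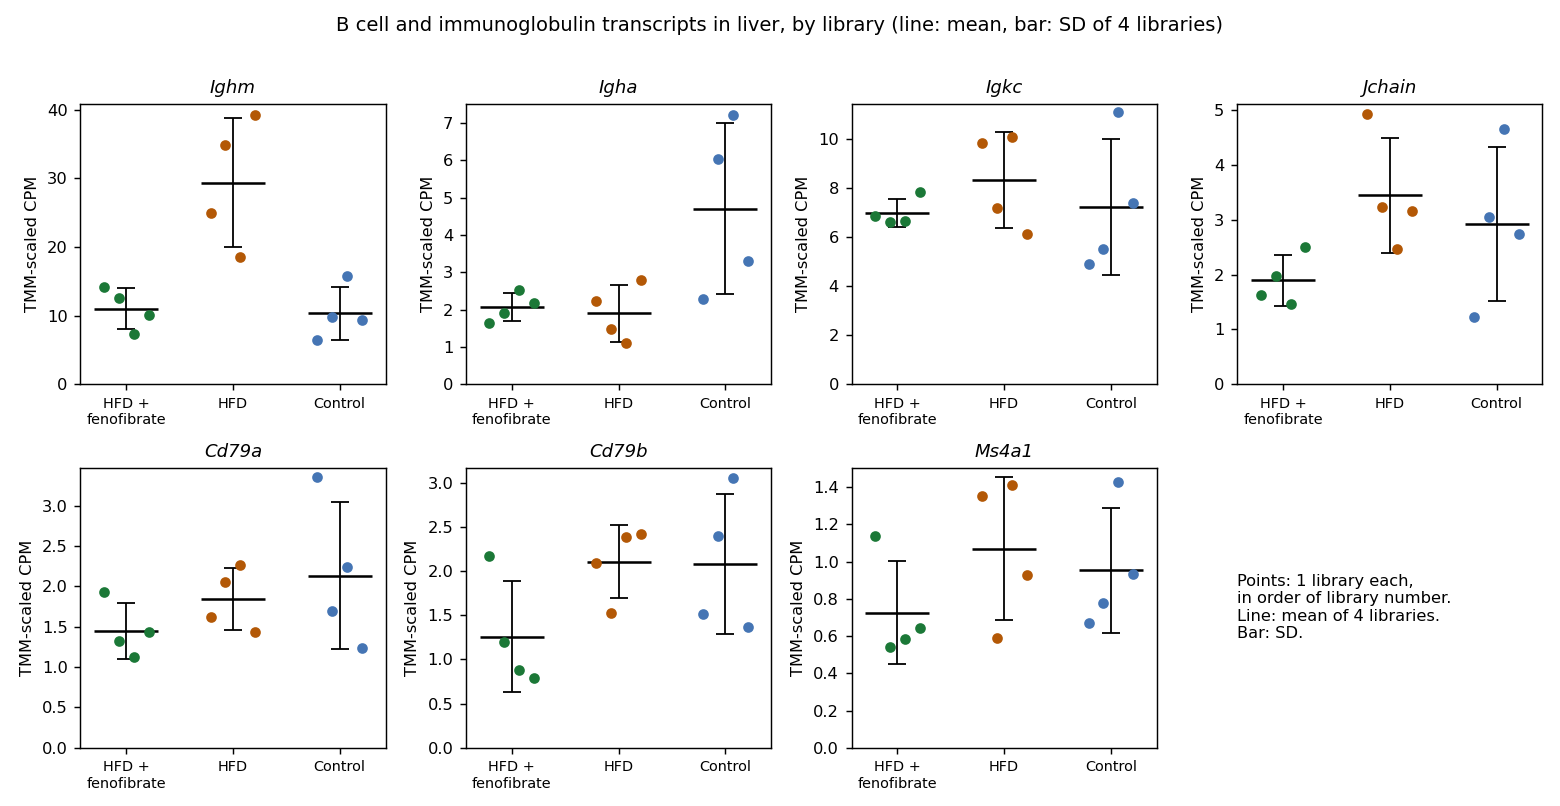
Level of each of the 7 transcripts in TMM-scaled CPM (vertical axis, starting at 0) in HFD + fenofibrate, HFD and Control liver, with 1 point per library in the order of library number, a line at the mean and a bar of 1 SD (n = 4). In the Ighm panel the 4 HFD points, from 18.5 to 39.2 CPM, lie above all others, and in the Igha panel 3 Control points lie above all others.

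Of the 7 members, 1 was called lower and 0 were called higher in HFD + fenofibrate against HFD, the 1 being Ighm. Over all 13477 genes tested, 6.59% were called lower and 6.89% higher. Ighm was also the 1 member whose ranges did not overlap in this comparison, where 10.3% of all genes lay wholly lower. In HFD against Control 1 member was called higher, Ighm, against 6.13% of all genes, and 1 was called lower, Igha, against 6.64%. Ighm alone lay wholly above Control, as did 8.48% of all genes. In HFD + fenofibrate against Control 1 member, Igha, was called lower, against 4.31% of all genes, and 0 were called higher, against 4.86%. Since these comparisons were in view when the set was chosen, nothing is read from the counts. By DESeq2, 1 member was again called lower in HFD + fenofibrate against HFD. The median log2 fold change of the 7 was -0.54 in HFD + fenofibrate against HFD, 0.16 in HFD against Control and -0.56 in HFD + fenofibrate against Control. The medians of all genes tested were 0.01, -0.02 and -0.01 in the same order. The first and second comparisons share the HFD libraries, so a high or low HFD value moves both in opposite directions.

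**Figure D2:**
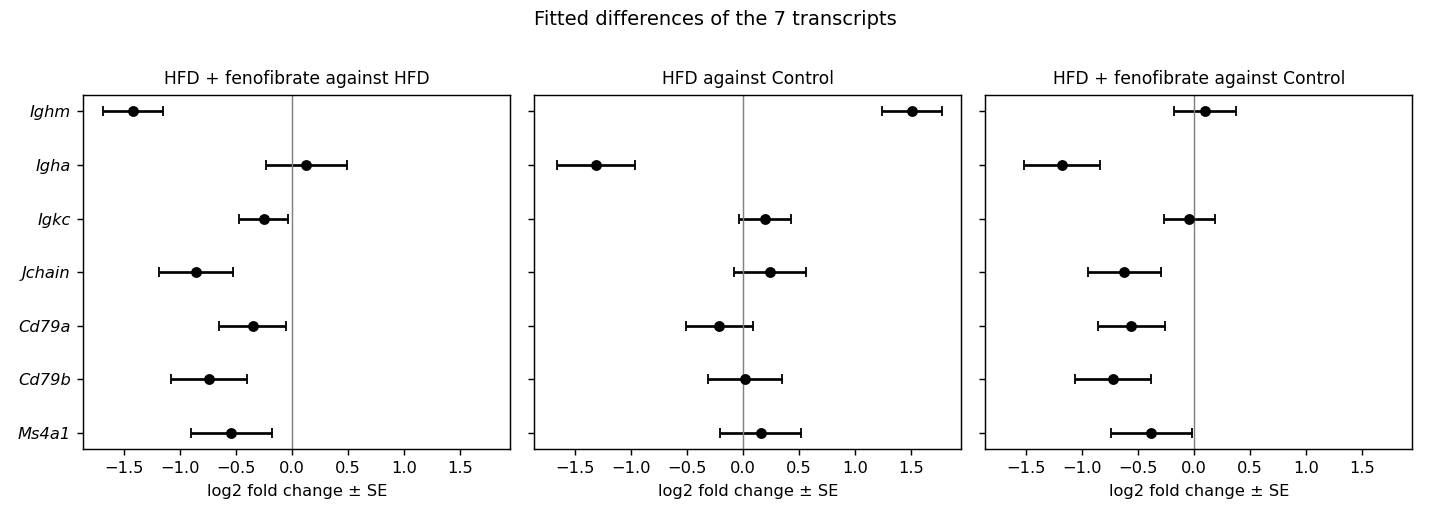
Fitted log2 fold change ± SE (horizontal axis) of each of the 7 transcripts in HFD + fenofibrate against HFD (left), HFD against Control (middle) and HFD + fenofibrate against Control (right). Ighm lies at -1.42 on the left and at 1.51 in the middle, and Igha at -1.31 in the middle and -1.18 on the right.

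The summed level of the 7 members largely followed Ighm. The sum was 25.4 ± 3.75 CPM in HFD + fenofibrate, 48.1 ± 7.54 CPM in HFD and 30.3 ± 10.7 CPM in Control (SD, n = 4 each). Ighm alone made up 42.8% ± 6.33 of it in HFD + fenofibrate, 60.0% ± 10.8 in HFD and 33.8% ± 1.78 in Control. Without Ighm, a choice made after the values were seen, the other 6 members summed to 14.4 ± 1.15 CPM in HFD + fenofibrate, 18.7 ± 2.74 CPM in HFD and 20 ± 6.80 CPM in Control. The log2 ratio of the means for HFD against Control was 0.66 with Ighm and -0.10 without it, so its sign rested on that gene. For HFD + fenofibrate against HFD it was -0.92 with Ighm and -0.38 without it.

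Levels were compared between genes per kilobase of annotated exon. In Control, Igkc had the highest level, 13.6 ± 5.21 CPM per kilobase, followed by Ighm with 5.47 ± 2.07. Igha with 1.76 ± 0.861, Cd79a with 1.46 ± 0.626, Cd79b with 1.45 ± 0.551 and Jchain with 1.16 ± 0.559 came next and did not differ from each other beyond their SD. Ms4a1 was lowest, with 0.154 ± 0.0542 CPM per kilobase. In HFD + fenofibrate the order began with Igkc, 13.1 ± 1.08, and Ighm, 5.85 ± 1.61. In HFD, Ighm and Igkc both averaged 15.6 CPM per kilobase, with SDs of 4.98 and 3.67, and did not differ beyond their SD.

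The heavy-chain classes took different shares of the constant region counts in the 3 groups. IgM, the class of naive and early responding B cells, held 63.4%, 67.0%, 38.4% and 39.0% of heavy-chain counts in HFD + fenofibrate libraries 1 to 4. It held 63.6%, 77.2%, 65.8% and 75.7% in HFD libraries 1 to 4 and 43.9%, 44.8%, 43.5% and 48.6% in Control libraries 1 to 4. HFD lay wholly above Control. HFD + fenofibrate libraries 1 and 2 lay above every Control library, and libraries 3 and 4 lay below every library of both other groups. The exact 95% binomial intervals, which cover counting error only, were 33.5% to 43.4% in HFD + fenofibrate library 3 and 61.5% to 72.2% in library 2, so that pair differed by more than counting error.

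IgA, the class of mucosal surfaces, held 7.27%, 10.3%, 13.4% and 8.38% of heavy-chain counts in HFD + fenofibrate libraries 1 to 4. It held 5.69%, 3.26%, 3.92% and 5.38% in HFD libraries 1 to 4 and 15.6%, 27.8%, 20% and 17.0% in Control libraries 1 to 4. The 3 groups did not overlap in this share, with HFD lowest and Control highest. A share falls when another class grows, and the IgA level itself was about equal in HFD + fenofibrate and HFD.

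IgG, the main class of circulating antibody after switching, held 15.4%, 18.9%, 42.8% and 44.8% in HFD + fenofibrate libraries 1 to 4. It held 25.7%, 13.2%, 18.1% and 14.7% in HFD and 19.1%, 15.8%, 22% and 27.7% in Control, in the same library order. HFD + fenofibrate libraries 3 and 4 lay above all others, and different genes led in each. Ighg2c had 3.94 CPM in library 3, and Ighg1 had 6.31 CPM in library 4. Ighg2b had 3.55 CPM in library 3 and 4.29 CPM in library 4, against 1.48 and 1.92 CPM in libraries 1 and 2. The IgG genes resemble each other in sequence, and the labels do not say how reads shared among them were counted. IgD averaged 7.74% ± 4.41 in HFD + fenofibrate, 6.94% ± 3.62 in HFD and 13.5% ± 6.09 in Control. IgE had 0 counts in HFD + fenofibrate, 0 in HFD and 2 in Control.

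**Figure D3:**
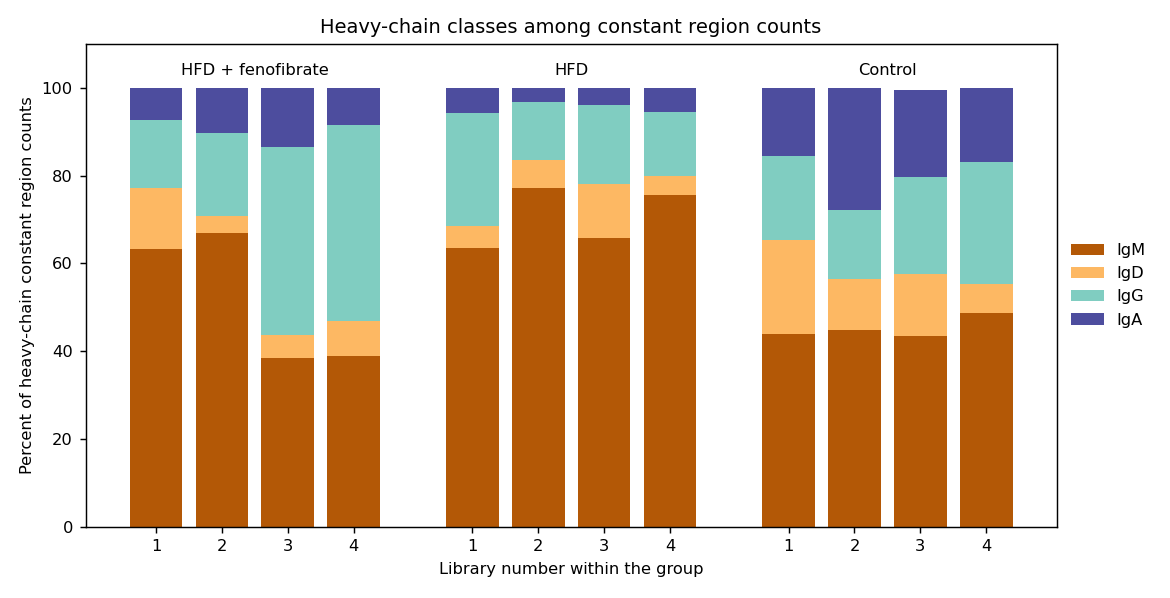
Share of heavy-chain constant region counts in percent (vertical axis) held by IgM, IgD, IgG and IgA in each of the 12 libraries, grouped as HFD + fenofibrate, HFD and Control; the 2 IgE counts are not drawn. IgM takes 63.6% to 77.2% of each HFD bar and 43.5% to 48.6% of each Control bar, and HFD + fenofibrate libraries 3 and 4 carry the widest IgG part.

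Ighm was also set against the light chain, in a ratio that reuses the Ighm counts given above. There were 2.07, 1.90, 1.09 and 1.29 Ighm counts per Igkc count in HFD + fenofibrate libraries 1 to 4. The ratio was 2.53, 4.85, 1.84 and 6.39 in HFD libraries 1 to 4 and 1.31, 1.76, 1.42 and 1.27 in Control libraries 1 to 4. HFD libraries 2 and 4 were far above all others, HFD lay wholly above Control, and HFD library 3 lay within HFD + fenofibrate. The other heavy chains together gave 1.47 ± 0.493 counts per Igkc count in HFD + fenofibrate, 1.47 ± 0.448 in HFD and 1.76 ± 0.347 in Control (SD, n = 4 each). Lambda constant regions gave 0.0394 ± 0.0211 counts per Igkc count in HFD + fenofibrate, 0.0763 ± 0.0287 in HFD and 0.0798 ± 0.0395 in Control. These lambda values rest on few reads. Iglc1, Iglc2 and Iglc3 each had between 0 and 14 counts per library, and none passed the low-count filter.

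Variable region segments, which are counted apart from the constant regions they are spliced to, were thinly covered. The tables held 160 of them with 1431 counts over the 12 libraries, and 0 passed the low-count filter. They summed to 5.93 ± 0.399 CPM in HFD + fenofibrate, 8.36 ± 1.56 CPM in HFD and 6.72 ± 1.90 CPM in Control (SD, n = 4 each). In each library 49 to 69 segments had counts. Ighv1-56, at chr12:115242802-115243235 on the minus strand, had the most counts, 94. They were 3, 6, 6 and 8 in HFD + fenofibrate libraries 1 to 4, 24, 6, 14 and 15 in HFD libraries 1 to 4, and 3, 4, 3 and 2 in Control libraries 1 to 4. HFD libraries 1, 3 and 4 were high, while HFD library 2 was within the range of HFD + fenofibrate although its Ighm was the second highest. In HFD library 1, Ighv1-56 took 16.8% of variable segment counts (exact 95% interval 11.1% to 23.9%). Igkv4-58 had 34 counts, of which 17 fell in HFD + fenofibrate library 2, and Igkv1-135 had as many. Igkv1-110 had 43, Igkv10-96 had 42 and Iglv1, the lambda segment, had 39.

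The other genes of the B lineage were taken from 4 lists of 67 genes, of which 64 were in the tables and 47 were tested. In HFD + fenofibrate against HFD, 0 of the 47 rose and 4 fell, with a median log2 fold change of -0.14, where 6.59% of all genes fell and 6.89% rose. In HFD against Control 3 rose and 1 fell, with a median of 0.17, where 6.13% of all genes rose and 6.64% fell. In HFD + fenofibrate against Control 0 rose and 1 fell, with a median of -0.01, where 4.86% of all genes rose and 4.31% fell. At an unadjusted p under 0.05, 1 gene was higher and 6 were lower in the first comparison, and DESeq2 called 1 higher and 4 lower. The number of calls in the first comparison changed with single libraries: edgeR called 0 of the 47 without HFD + fenofibrate library 1, 0 without library 3, 0 without both of them and 0 without HFD library 2. Over all genes the same omissions left 898, 610, 124 and 1152 of 1816 calls. The fitted changes of the 4 genes stayed below 0 in all 21 alternatives, from -1.31 to -0.81 for Bach2, -0.92 to -0.60 for Bank1, -0.71 to -0.33 for Ssr4 and -0.67 to -0.35 for Sec11c. Leaving out HFD library 3 or HFD library 4 left 1 call, and leaving out HFD library 1 left 2. In HFD against Control it called 2 without HFD library 2 and 2 without Control library 4, and in HFD + fenofibrate against Control 2 without HFD + fenofibrate library 2 and 2 without Control library 1.

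Over all genes, 6.59% fell and 6.89% rose in HFD + fenofibrate against HFD, and 6.13% rose and 6.64% fell in HFD against Control. Bach2 is a repressor that keeps activated B cells from becoming plasma cells and that T cells also use. It was the 1 of 10 tested B lineage transcription factors to pass, in both comparisons with HFD. It had 2.96, 2.10, 1.61 and 3.30 CPM in HFD + fenofibrate libraries 1 to 4, 3.31, 8.78, 5.77 and 4.09 CPM in HFD libraries 1 to 4, and 3.13, 1.3, 2.86 and 1.87 CPM in Control libraries 1 to 4. All 4 HFD libraries lay above all others, although HFD library 1 was barely above HFD + fenofibrate library 4. Bach2 fell in HFD + fenofibrate against HFD (log2 fold change -1.14 ± 0.32, adjusted p = 0.0314, edgeR quasi-likelihood test with Benjamini-Hochberg adjustment). It rose in HFD against Control (1.26 ± 0.33, adjusted p = 0.0213, same edgeR test). Over 21 alternatives the adjusted p ran from 0.00761 to 0.251 for the drug, the highest without HFD + fenofibrate libraries 1 and 3 (log2 fold change -1.01), and from 0.00267 to 0.0828 for the diet. In HFD + fenofibrate against Control, edgeR and DESeq2 each called 0 of the 10 factors, with 0 at an unadjusted p under 0.05. The most abundant factors, Foxo1 and Tcf3, which many tissues express, had log2 fold changes of 0.30 ± 0.16 and 0.13 ± 0.13 there.

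Of all genes, 6.59% fell and 6.89% rose in HFD + fenofibrate against HFD. Of the 23 tested genes of the B cell surface and receptor signalling, 1 fell and 0 rose. It was Bank1, a scaffold of B cell receptor signalling, at 1.4 ± 0.300 CPM in HFD + fenofibrate, 2.37 ± 0.482 CPM in HFD and 1.80 ± 0.302 CPM in Control (SD, n = 4 each). Its log2 fold change in HFD + fenofibrate against HFD was -0.76 ± 0.23 (adjusted p = 0.0416 in the edgeR quasi-likelihood test, 0.0307 to 0.341 over the alternatives), and -0.61 without HFD + fenofibrate libraries 1 and 3 (adjusted p = 0.341 by edgeR). In HFD against Control 1 of the 23 rose and 0 fell, where 6.13% of all genes rose and 6.64% fell. It was Ly6d, a surface protein of early B lineage cells, at 3.63 ± 1.75 CPM in HFD and 1.49 ± 0.572 CPM in Control, with a log2 fold change of 1.28 ± 0.36 (adjusted p = 0.0304 by edgeR, 0.00476 to 0.0964 over the alternatives). The HFD and Control ranges of Ly6d overlapped. In HFD + fenofibrate against Control edgeR called 0 of the 23, as did DESeq2, with 2 higher and 0 lower at an unadjusted p under 0.05. The most abundant of them were Lyn, a kinase of the B cell receptor that myeloid cells also use, with a log2 fold change of 0.04 ± 0.09, and Cd38, an ectoenzyme of many blood cells, with -0.18 ± 0.13.

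The 3 groups overlapped in Pax5, Ighd, Ighg2b and Cd22, of which Pax5 and Cd22 were named after their values were seen. Not all B lineage genes without a call overlapped. In HFD + fenofibrate, Cd40, H2-Ob and Lyn lay wholly below HFD (log2 fold change -0.84, -0.71 and -0.14). Of the called B lineage genes, Bach2 and Sec11c did so too. Over all genes, called or not, 10.3% lay wholly below HFD. Tcf3 lay wholly above HFD (0.42), and the share of all genes that did so was not counted. Pax5, the factor that fixes B cell identity, had 0.474 ± 0.114 CPM in HFD + fenofibrate, 0.695 ± 0.289 CPM in HFD and 0.731 ± 0.249 CPM in Control (SD, n = 4 each). Its log2 fold change was -0.09 ± 0.38 in HFD against Control (adjusted p = 0.916, edgeR quasi-likelihood test with Benjamini-Hochberg adjustment). Ighd, the IgD heavy chain that naive B cells make together with IgM, had 1.72 ± 1.08 CPM in HFD + fenofibrate, 2.61 ± 0.678 CPM in HFD and 3.02 ± 1.58 CPM in Control. Its log2 fold change in HFD against Control was -0.20 ± 0.41 (adjusted p = 0.799 by edgeR). Cd22, an inhibitory receptor of B cells, had 1.88 CPM in HFD + fenofibrate, 1.57 CPM in HFD and 1.66 CPM in Control on average. Ighg2b, an IgG heavy chain, had 2.81 ± 1.33 CPM in HFD + fenofibrate, 3.16 ± 0.932 CPM in HFD and 2.28 ± 1.35 CPM in Control. Of the 4 tested genes of other constant regions, edgeR and DESeq2 each called 0 in all 3 comparisons, with 0 at an unadjusted p under 0.05. A missed threshold does not show equal levels, and Pax5 had 5 to 17 counts per library. The difference between the change of Ighm and that of any of these genes was not tested.

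**Figure D4:**
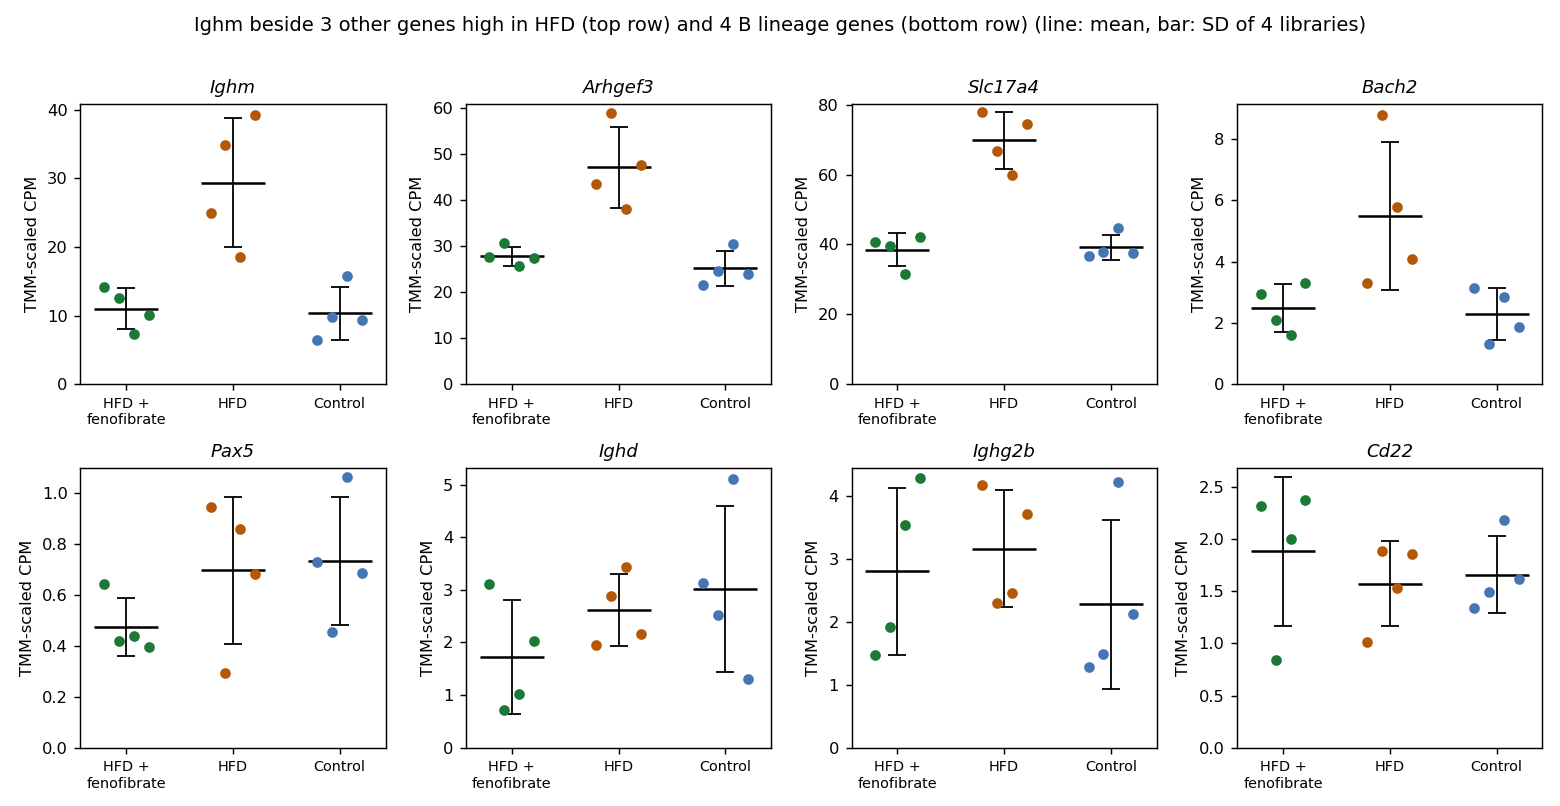
Level in TMM-scaled CPM (vertical axes, starting at 0) of Ighm, Arhgef3, Slc17a4 and Bach2 (top row) and of the B lineage genes Pax5, Ighd, Ighg2b and Cd22 (bottom row) in HFD + fenofibrate, HFD and Control liver, with 1 point per library, a line at the mean and a bar of 1 SD (n = 4). In the top row every HFD point lies above the points of both other groups, and in the bottom row the groups overlap. Ighm and Bach2 are B lineage genes too. Arhgef3 and Slc17a4 were picked for likeness to Ighm, and Pax5 and Cd22 were named after their values were seen.

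Over all genes, 6.59% fell and 6.89% rose in HFD + fenofibrate against HFD. Of the 10 tested plasma cell genes, 2 fell and 0 rose in this comparison. They were Ssr4 (log2 fold change -0.51 ± 0.16, adjusted p = 0.048 in the edgeR quasi-likelihood test, 0.00546 to 0.424 over the alternatives) and Sec11c (-0.51 ± 0.14, adjusted p = 0.0289 by edgeR, 0.00348 to 0.311). Without HFD + fenofibrate libraries 1 and 3 the changes were -0.33 for Ssr4 and -0.39 for Sec11c, and neither was called. Ssr4 kept its call in 9 of 21 alternatives and Sec11c in 13. Both serve the entry of proteins into the endoplasmic reticulum, which hepatocytes use as well. In HFD against Control 1 rose, Txndc5, a disulfide isomerase of the endoplasmic reticulum, by 0.37 ± 0.09 on the log2 scale (adjusted p = 0.0164 by edgeR, 0.00104 to 0.0589 over the alternatives). In the same comparison 1 fell, Sdc1, a heparan sulfate proteoglycan of plasma cells that is also abundant on hepatocytes. Of all genes, 6.13% rose and 6.64% fell there. Sdc1 had 218 ± 12.8 CPM in HFD + fenofibrate, 210 ± 25.5 CPM in HFD and 358 ± 47.3 CPM in Control (SD, n = 4 each), so every library of both high-fat groups lay below Control. Its log2 fold change was -0.77 ± 0.11 for HFD against Control (adjusted p = 0.000506 by edgeR, 7.17e-09 to 0.0026 over the alternatives) and -0.72 ± 0.11 for HFD + fenofibrate against Control (adjusted p = 0.00136 by edgeR, 1.39e-07 to 0.0208). Mzb1, a chaperone of IgM secretion, had 0.271 CPM in HFD + fenofibrate, 0.45 CPM in HFD and 0.168 CPM in Control on average, and its 1 to 10 counts per library kept it from the test.

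**Figure D5:**
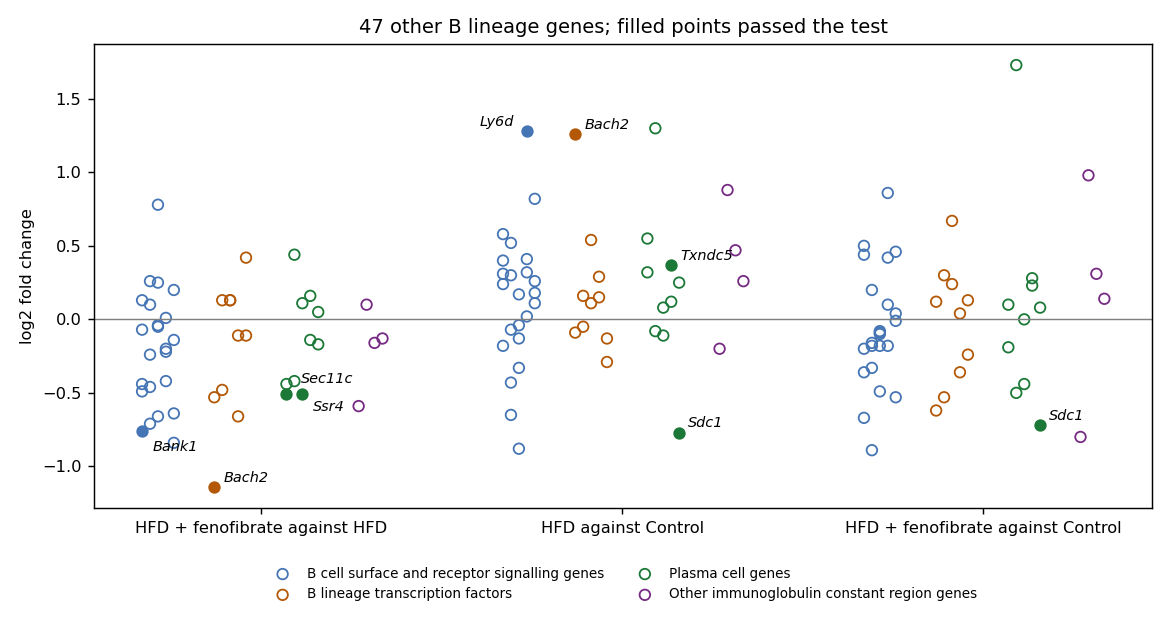
Fitted log2 fold change (vertical axis) of the 47 tested B lineage genes other than the 7 transcripts, in HFD + fenofibrate against HFD, HFD against Control and HFD + fenofibrate against Control, with colours for the 4 lists. Filled, named points passed the edgeR test: 4 on the left, all below 0, 4 in the middle, of which Ly6d, Bach2 and Txndc5 lie above 0, and Sdc1 alone on the right.

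Among the receptors that bind or carry antibody, Fcgrt, the receptor that saves IgG and albumin from breakdown, was the 1 of 8 tested genes to pass. Of all genes, 6.59% fell in HFD + fenofibrate against HFD and 6.13% rose in HFD against Control. Fcgrt had 204 ± 16.6 CPM in HFD + fenofibrate, 284 ± 26.2 CPM in HFD and 220 ± 30.3 CPM in Control (SD, n = 4 each). It fell in HFD + fenofibrate against HFD (log2 fold change -0.48 ± 0.11, adjusted p = 0.0138, edgeR quasi-likelihood test) and rose in HFD against Control (0.37 ± 0.11, adjusted p = 0.0406 by edgeR). Over the alternatives the adjusted p ran from 0.000642 to 0.208 for the drug, the highest without HFD + fenofibrate libraries 1 and 3 (log2 fold change -0.38), and from 0.00678 to 0.123 for the diet. The call for the drug was also lost without HFD + fenofibrate library 3. The call for the diet was lost without HFD library 1, 2 or 4 and without Control library 1, 3 or 4. All 4 HFD + fenofibrate libraries lay below HFD, while HFD and Control overlapped. Of the 8 genes, 8 were fitted below 0 in HFD + fenofibrate against HFD with a median of -0.30 (0.01 over all genes), and 7 with a median of -0.14 with no scaling factor (0.18 over all genes). Over all 13477 genes tested, 6561 were below 0 with TMM. So were 9 of 10 Kupffer cell markers (median -0.31), 6 of 8 general leukocyte markers (-0.32) and 7 of 9 T cell markers (-0.30). Of the NK cell markers 0 of 2 were below 0, and of the red blood cell markers 1 of 5. In HFD + fenofibrate against Control edgeR called 0 of the 8 antibody receptor genes, while DESeq2 called 1 lower, and 1 was lower at an unadjusted p under 0.05. Pigr, the receptor that carries polymeric IgA into bile, had 1110 ± 157 CPM in HFD + fenofibrate, 1310 ± 156 CPM in HFD and 1410 ± 98.8 CPM in Control. Its log2 fold change was -0.11 ± 0.12 in HFD against Control (adjusted p = 0.609 by edgeR) and -0.35 ± 0.12 in HFD + fenofibrate against Control (adjusted p = 0.0834 by edgeR). Of 7 tested survival and homing factors of B cells, edgeR and DESeq2 each called 0 in all 3 comparisons. At an unadjusted p under 0.05, 1 was higher in HFD + fenofibrate against HFD, 3 were lower in HFD against Control and 1 was lower in HFD + fenofibrate against Control. The most abundant of them were Cxcl12, which draws plasma cells, with log2 fold changes of 0.04 ± 0.10 for fenofibrate against HFD and -0.13 ± 0.10 for HFD against Control, and Vcam1, an adhesion molecule for lymphocytes, with -0.37 ± 0.20 and 0.01 ± 0.20 for the same comparisons.

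Markers of other blood cells were summed beside the members. The 18 T cell markers summed to 8.34 to 10.9 CPM in HFD + fenofibrate, 7.75 to 13.3 CPM in HFD and 8.75 to 28.0 CPM in Control, with all 18 detected. Control library 3 held the 28.0 CPM and was also the highest of its group in 6 of the 7 members, all but Cd79a. The 8 general leukocyte markers summed to 43.7 to 70.7 CPM in HFD + fenofibrate, 53.9 to 78.8 CPM in HFD and 53.0 to 87.9 CPM in Control. The 10 Kupffer cell markers summed to 341 to 522 CPM in HFD + fenofibrate, 300 to 633 CPM in HFD and 356 to 532 CPM in Control. The groups overlapped in each of these sums, and their part in the members' values was not tested. Without Control library 3 the summed members of HFD against Control gave a log2 ratio of 0.92, against 0.66 with it.

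Genes of like pattern were ranked by Pearson r over the 12 libraries among the 13477 genes tested. These values describe libraries that share groups, and counts this low make any single r imprecise. The genes closest to the mean of the 7 members were Serping1, the C1 inhibitor of complement (r = 0.94), Coro1a, an actin-binding protein of leukocytes (0.94), Zfp945 (0.87), B2m, the light chain of MHC class I (0.86), and Pmepa1 (0.86). Others among the 10 closest were Lig4 (0.83), Lsm12 (0.83), Ikbip (0.82) and Gpr160 (0.82). With group means removed, Serping1 had r = 0.91 and Coro1a 0.89. These 2 genes had been picked for a high r over the same libraries, which favours a high value here. The 100 closest genes held 0 other immunoglobulin genes, of which 4 were tested.

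Ighm alone, a match added after the values were seen, led to other genes. The closest were Arhgef3, a guanine nucleotide exchange factor (r = 0.95 over 12 libraries), Pebp1 (0.93), the anion transporter Slc17a4 (0.93), the thyroid hormone deiodinase Dio1 (0.92) and the liver-secreted Lect2 (0.92). Dio1 averaged 79.5 CPM in HFD + fenofibrate, 206 CPM in HFD and 83.9 CPM in Control. With group means removed, r was 0.82 for Arhgef3 and 0.70 for Dio1. Both were picked for a high r over these same libraries, which favours a high value here too. Between members, Ighm had r = 0.02 with Cd79a, 0.34 with Ms4a1, 0.36 with Igkc, 0.48 with Cd79b, 0.63 with Jchain and -0.24 with Igha. With group means removed these were -0.12, 0.18, 0.17, 0.52, 0.59 and 0.52 in the same order. Without that removal, Ms4a1 had r = 0.87 with Pax5 and 0.77 with Cd79b, and Cd79a had 0.78 with Ighd. The closest gene to Igkc was Lck, a kinase of T cells (0.91).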

How the data were processed

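Liver RNA of 12 libraries was analysed, 4 per group. The deposited count values are whole numbers of reads per Ensembl gene, per the file headers. Per the submitters' processing notes, the authors used HTSeq 0.6.0, HISAT2 2.0.5 and StringTie 1.3.2d, with settings for strand and shared reads and the annotation release not given in the sources used here. Log2 fold change and fold change (a ratio) in the deposited tables are the authors' own, and only served to check direction: for Ighm the authors' deposited table gives log2 fold changes of -1.42 for fenofibrate over HFD and 1.52 for HFD over Control. The labels name builds mm8 and mm9, but 23242 of 25113 positions (92.5%) match GENCODE M21 on GRCm38.

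The 2 tables were joined by identifier, with 22657 genes in both, and genes found in 1 table only (1389 and 1118) were set to 0 in the other. The HFD counts differed in 0 cells. Counts were fitted with edgeR 4.0.16 in R 4.3.3 (filterByExpr, TMM, quasi-likelihood, 1 coefficient per group, all 12 libraries, Benjamini-Hochberg over 13477 genes). SE is the size of the log2 fold change divided by the square root of F. The common biological coefficient of variation was 0.155. Levels and marker sums are TMM-scaled CPM, and TMM factors ran from 0.884 to 1.16. The deposited libraries of a group differed by more than counting error (chi-square per gene 13.9 to 38.5 over 18 pairs). The steps were tested on simulated data. Some genes that the naming rules select are not reported here.

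The members, the 6 pathway and 11 marker lists and the tests were chosen with earlier results of these data known. Named were all members, up to 4 called genes of each pathway list, or the 2 most abundant where none was called, the variable segments with most counts (6, since the fifth was tied; 5 pseudogenes left out), and the 10 genes most like the members' mean, with a mean of at least 0.2 CPM. Other genes were named after their values were seen: Pax5, Cd22, Mzb1, Tnfrsf17, Ighg1, Ighg2c and the genes most like single members. Alternatives were DESeq2 1.42.0, limma-voom 3.58.1, other scaling and filters, fits of only 8 libraries, a replicate block, an adjusted p under 0.01, each library left out, and HFD + fenofibrate libraries 1 and 3 left out.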

Additional observations from a re-analysis of the deposited data

Results flagged for a closer look

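Of 81 groups of 4 libraries checked, 8 had 1 library far from the other 3, a flag that chance gives about 1 in 20 groups. Ms4a1 had 1.14 CPM in HFD + fenofibrate library 1 and 0.54 to 0.641 CPM in the other libraries of that group. Ighg1 had 6.31 CPM in HFD + fenofibrate library 4 and 0.195 to 0.84 CPM in the others, and Ighg2c had 3.94 CPM in HFD + fenofibrate library 3 and 0.84 to 0.96 CPM in the others. The T cell markers summed to 28.0 CPM in Control library 3, against 8.75 to 11 CPM in the other Control libraries. For pancreatic acinar markers the sum was 2040 CPM in HFD + fenofibrate library 1, against 8.56 to 14.2 CPM in the rest of the group. Markers of plasmacytoid dendritic cells summed to 109 CPM in HFD library 2, against 121 to 123 CPM in the other HFD libraries. General leukocyte markers summed to 53.9 CPM in HFD library 1, against 75.1 to 78.8 CPM in the others. Markers of lymphoid stroma and lymphatics summed to 180 CPM in Control library 1, against 112 to 123 CPM in the others.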

How the results depend on the processing

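Ighm passed the call in HFD against Control under all 21 alternatives (log2 fold change 1.34 to 1.79) and in HFD + fenofibrate against HFD under 20 of 21 (-1.58 to -1.24), the exception being the fit without HFD + fenofibrate libraries 1 and 3. Igha passed in HFD against Control under 17 of 21 and in HFD + fenofibrate against Control under 11 of 21, the replicate block (-1.15) among the fits without the call. Jchain, not called, passed in HFD + fenofibrate against HFD with only the 8 libraries compared and without Control library 1. The alternatives refit the libraries from which the set was chosen. They show how the member calls depend on processing and add no support to them.

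Over all genes, 1816 were called in HFD + fenofibrate against HFD, 1721 in HFD against Control and 1236 in HFD + fenofibrate against Control. Leaving out 1 library gave 610 to 2416, 1112 to 1762 and 717 to 1710 in that order. An adjusted p under 0.01 left 462, 703 and 454, and the fit without HFD + fenofibrate libraries 1 and 3 left 124 in the first and 373 in the last. With no scaling factor the median of all genes moved to 0.18, 0.03 and 0.20 on the log2 scale, and the calls split into 2059 higher and 451 lower, 919 and 523, and 2119 and 298 (2417 in all), against 928 and 888, 826 and 895, and 655 and 581 with TMM.

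For the other B lineage genes, leaving out 1 library gave 0 to 5 calls against 4 in HFD + fenofibrate against HFD, 2 to 4 against 4 in HFD against Control and 1 to 2 against 1 in HFD + fenofibrate against Control. No scaling factor gave 1 higher and 0 lower in the first (0 and 4 with TMM) and 2 higher and 1 lower, 3 in all, in the last (0 and 1 with TMM), an adjusted p under 0.01 gave 0 in the first and 1 in the second, and the fit without libraries 1 and 3 gave 0 in the first. The replicate block gave 2 in the first and 2 in the second. Same-numbered libraries did not deviate together (r from -0.151 to 0.117 over 12 pairs), so the numbers were not taken as pairs. With the block, 1674, 1511 and 1104 of all genes were called.

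The summed level of the members, -0.92, 0.66 and -0.26 on the log2 scale, ran from -1.01 to -0.83, 0.51 to 0.92 and -0.40 to 0.01 with 1 library left out. The mean of the 7 log2 ratios was -0.58 in HFD + fenofibrate against HFD and 0.09 in HFD against Control, and the sum without Ighm was -0.38 and -0.10. The causes of these changes were not tested. Counts of 9 to 116 per library limit the precision for the 5 members other than Ighm and Igkc.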
